A study of Mus musculus with 6 samples.

Results

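The marker genes of Kupffer cells and other macrophages described here were *Clec4f*, *Vsig4*, *Cd5l*, *Timd4*, *Adgre1*, *Marco*, *Cd163*, *Ccl8*, *Ccl6* and *Ccr2*, 10 of the 35540 gene symbols in the deposited liver transcript table. The genes were chosen by name, and the list was selected on the levels already seen in the 2 genotypes, *Ccl8* for its difference between them. The value of each gene is the sum of its transcripts in TPM, a transcript abundance that is corrected for length and adds up to the same total in each library. The comparison between genotypes therefore describes these genes and does not test them, whereas the comparison between the sexes played no part in choosing them. All 10 genes passed the filter of a mean of at least 0.1 TPM, *Ccl8* only through the Alb-Cre+ mice.

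RNA sequencing had been done on the livers of 6 mice homozygous for a floxed *Surf4* allele, with 1 library per mouse: 3 were *Surf4* fl/fl Alb-Cre+ and the other 3 were the Alb-Cre- controls. In the floxed allele loxP sites surround exon 2, the background was C57BL/6J, and only the Alb-Cre+ mice carried the transgene that drives Cre recombinase from the albumin promoter, which is active in hepatocytes. Replicates 1 and 3 of each genotype were male and replicate 2 was female, so that sex and replicate number cannot be told apart. Ages were not given in the labels, mice were fed 5L0D chow, and sample collection in the study followed a fast overnight.

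Kupffer cells are the macrophages that line the liver sinusoids, where they take up particles, microbes, dying cells and complement-coated material from portal blood. Most descend from embryonic precursors and renew locally, and circulating monocytes, which need the chemokine receptor CCR2 to leave the marrow, can replace them when they are lost. The Alb-Cre transgene acts in their hepatocyte neighbours and is not designed to delete *Surf4* in Kupffer cells.

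*Surf4*, which encodes a cargo receptor of the endoplasmic reticulum, had 59.0, 71.8 and 54.3 TPM in replicates 1 to 3 of the Alb-Cre+ mice and 92.5, 94.5 and 92.5 TPM in the controls, without overlap. The Y-linked gene *Ddx3y* had 19.3 to 22.3 TPM in the 4 male mice and was listed at 0 in both female mice, as labelled. The 6 hepatocyte markers, among them albumin, summed to 57687 to 87091 TPM per mouse, and each of the 10 genes but *Ccl8* had a value above 0 in all 6 livers. The 2 female libraries stood apart from the 4 male ones in the genes described here, and differences between the genotypes are given with and without them. The read depth of the libraries is unknown, so no counting error is given.

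Of the 10 genes, *Cd5l* had the highest mean level over the 6 mice with 103 TPM, followed by *Clec4f* with 51.9, *Vsig4* with 46.0, *Marco* with 33.8 and *Ccl6* with 26.1 TPM. *Adgre1* had a mean of 11.2 TPM, *Cd163* of 8.84 and *Timd4* of 6.85 TPM, whereas *Ccr2* and *Ccl8* were far lower at 0.438 and 0.131 TPM. The order was not the same in each mouse for close neighbours: *Clec4f* was above *Vsig4* in 4 of 6 mice, and *Vsig4* was above *Marco*, *Marco* above *Ccl6* and *Adgre1* above *Cd163* in 5 of 6. The other neighbours kept their order in 6 of 6 mice. The genes therefore spanned a steep range, from abundant resident macrophage products to a monocyte receptor and a chemokine near the lower limit of the table.

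**Figure D1:**
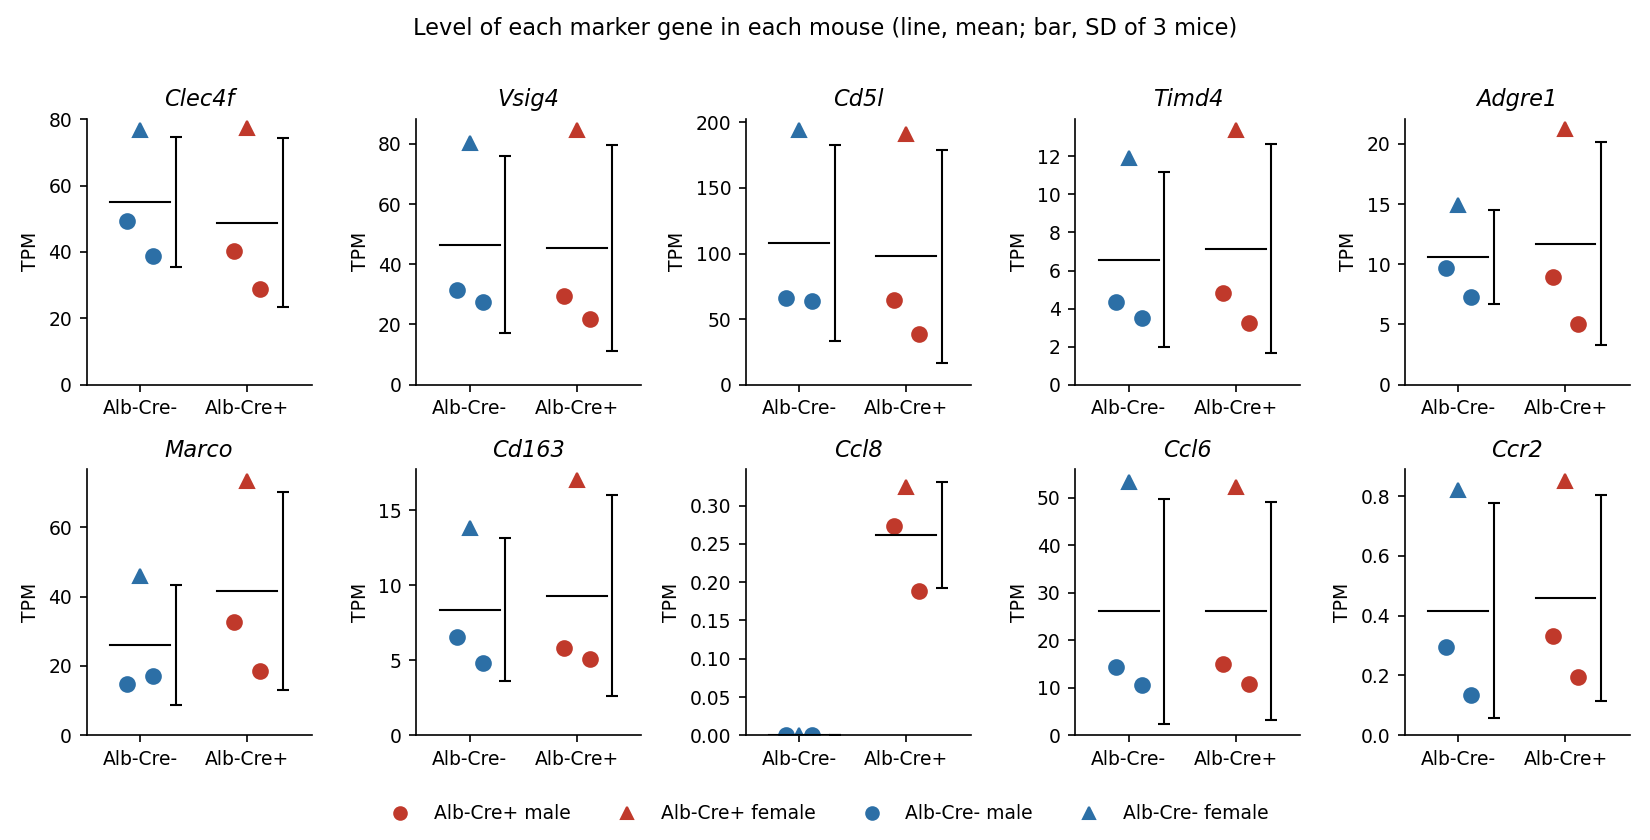
Level of each of the 10 genes in TPM on a linear axis from 0, with 1 point per mouse, the mean of each genotype as a line and the SD of 3 mice as a bar. Both female mice (triangles) lie above the 4 male mice (circles) for 9 genes, and *Ccl8* is listed at 0 in the 3 Alb-Cre- mice.

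*Clec4f* encodes a galactose-binding C-type lectin that in mice is largely restricted to Kupffer cells, and lies at chr6:83644542-83656187 on the minus strand (GRCm38, GENCODE M21). Its level was 40.2, 77.5 and 28.8 TPM in replicates 1 to 3 of the Alb-Cre+ mice and 49.3, 76.7 and 38.9 TPM in the controls. The female mouse of each genotype was the highest, and the genotypes overlapped. The Alb-Cre+ minus Alb-Cre- difference on log2(TPM + 0.1) was -0.24 (SE 0.40, n = 3 per genotype), and -0.36 in the male mice alone.

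*Vsig4* encodes a complement receptor through which Kupffer cells capture C3-coated particles. It had 29.5, 84.7 and 21.9 TPM in the Alb-Cre+ mice and 31.6, 80.4 and 27.6 TPM in the controls, again with the female mice highest and with overlapping genotypes. *Cd5l*, a secreted scavenger receptor protein that supports macrophage survival, had 64.6, 191 and 38.6 TPM in the Alb-Cre+ mice and 66.4, 194 and 64.0 TPM in the controls. *Cd5l* in the female mice differed little between the genotypes, whereas Alb-Cre+ replicate 3 had the lowest value of all 6 mice. The log2 difference between the genotypes was -0.12 (SE 0.58) for *Vsig4* and -0.27 (SE 0.65) for *Cd5l*, with n = 3 per genotype.

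*Timd4*, a phosphatidylserine receptor for apoptotic cells and a marker of long-resident Kupffer cells, had 4.80, 13.4 and 3.23 TPM in the Alb-Cre+ mice and 4.33, 11.9 and 3.50 TPM in the controls. *Adgre1* encodes the F4/80 antigen, the classical mouse macrophage marker. It had 8.98, 21.2 and 5.04 TPM in the Alb-Cre+ mice and 9.72, 14.9 and 7.30 TPM in the controls, and both male Alb-Cre+ mice were below the male control of the same number. *Cd163*, the scavenger receptor for haptoglobin bound to haemoglobin, had 5.82, 17.0 and 5.07 TPM in the Alb-Cre+ mice and 6.56, 13.8 and 4.79 TPM in the controls. The genotypes overlapped for all 3 genes, with log2 differences of 0.07 (SE 0.62) for *Timd4*, -0.05 (SE 0.52) for *Adgre1* and 0.07 (SE 0.55) for *Cd163*.

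*Marco* encodes a scavenger receptor for bacteria and particles. It had 32.6, 73.5 and 18.6 TPM in the Alb-Cre+ mice and 14.9, 46.0 and 17.1 TPM in the controls. The values overlapped between the genotypes, but the Alb-Cre+ mouse was higher than the control in each of the 3 pairs of the same replicate number, by 1.13, 0.68 and 0.12 on the log2 scale. The log2 difference was 0.64 with an SE of 0.59, or of 0.20 with the replicate number as a block, and 0.63 in the male mice alone. Of the 9 genes with a computed difference, *Marco* alone kept its sign when each mouse was left out in turn, and its difference then lay between 0.12 and 1.15. How many of all genes kept their sign was not computed, and these values describe *Marco* without testing it.

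*Ccl8* encodes a CC chemokine that attracts monocytes and T cells. It lies at chr11:82115185-82116799 on the plus strand and is represented by 1 transcript of 511 bases and 3 exons. It had 0.273, 0.324 and 0.188 TPM in the Alb-Cre+ mice and was listed at 0 in all 3 controls, so no fold change is given. The genotypes did not overlap, which is the pattern for which the gene was listed. A value of 0 in some mouse was common at such levels: of 1065 genes with a mean of 0.1 to 0.2 TPM, 252 (23.7%) were at 0 in at least 1 mouse. Whether a 0 stands for absent RNA or for a missed estimate was not tested. Of all 14189 genes tested, 3 including *Ccl8* were at 0 in every control and above 0 in every Alb-Cre+ mouse (0.0211%), and 2 showed the reverse (0.0141%).

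*Ccl6* encodes a CC chemokine of macrophages and other myeloid cells. It had 15.1, 52.3 and 10.8 TPM in the Alb-Cre+ mice and 14.4, 53.4 and 10.5 TPM in the controls. Mice of the same replicate number had nearly the same value in both genotypes, with log2 differences of 0.06, -0.03 and 0.04. *Ccr2* encodes the receptor for *Ccl2* that marks classical monocytes, and had 0.333, 0.850 and 0.195 TPM in the Alb-Cre+ mice and 0.296, 0.821 and 0.134 TPM in the controls. Its mean log2 difference was 0.17 (SE 0.64), with overlap, and at these low levels the added 0.1 TPM understates a difference. In the male mice alone the log2 difference was -0.21 for *Vsig4*, -0.38 for *Cd5l*, 0.02 for *Timd4*, -0.32 for *Adgre1*, -0.04 for *Cd163*, 0.05 for *Ccl6* and 0.23 for *Ccr2*.

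Over all 14189 genes, limma found 0 genes with an adjusted p under 0.01 between the genotypes (0.0%) and 250 with an unadjusted p under 0.05 (1.76%). The study's own DESeq2 comparison did report genes at a false discovery rate under 0.01. The count of 0 thus belongs to the fit used here, on TPM. The genotypes did not overlap for 695 genes (4.90%). Among the 10 genes 0 had an adjusted p under 0.01, 1 had an unadjusted p under 0.05, and for 1 the genotypes did not overlap, in both cases *Ccl8*. With the replicate number as a block, 666 genes (4.69%) had an unadjusted p under 0.05, among them *Ccl8* and *Marco*, and 0 an adjusted p under 0.01. These counts include the contrast for which the genes were listed, and nothing is read from them. In the fit without a covariate, the narrowest 95% interval of the log2 difference between genotypes was that of *Clec4f*, -1.17 to 0.69. The widest was that of *Ccl6*, -1.76 to 1.81. These widths include the spread between the sexes. Pairing mice by number, a pairing assumed from the data, changed the order. The SE of *Ccl6* fell from 0.76 to 0.10, the smallest among the genes with a computed difference. That of *Clec4f* fell from 0.40 to 0.12, and the largest was then 0.25 for *Ccr2*.

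Promoter sequences are shown for *Vsig4* and *Timd4*, which rose in female mice, and for *Ccl8*, listed at 0 in the controls, because these 3 genes had the patterns described and hold motifs of macrophage transcription factors. RefSeq promoters (GRCm38.p6, 250 bases before to 50 after the transcription start) matched 9 of the 10 genes, all but *Adgre1*. Below are the 250 bases before the start on the strand of the gene, with capitals for the motif named, at chrX:96293439-96293688 for *Vsig4* on the minus strand and chr11:46810549-46810798 for *Timd4* and chr11:82114935-82115184 for *Ccl8* on the plus strand.
Vsig4: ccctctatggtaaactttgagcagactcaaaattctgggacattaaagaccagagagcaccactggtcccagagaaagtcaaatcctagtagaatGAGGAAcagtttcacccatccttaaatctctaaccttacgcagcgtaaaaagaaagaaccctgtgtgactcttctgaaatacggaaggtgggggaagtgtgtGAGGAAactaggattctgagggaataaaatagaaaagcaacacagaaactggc
Timd4: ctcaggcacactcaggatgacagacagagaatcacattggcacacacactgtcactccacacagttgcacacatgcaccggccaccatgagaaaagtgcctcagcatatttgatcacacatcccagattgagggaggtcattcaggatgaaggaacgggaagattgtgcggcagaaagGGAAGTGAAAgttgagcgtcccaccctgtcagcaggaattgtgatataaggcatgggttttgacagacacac
Ccl8: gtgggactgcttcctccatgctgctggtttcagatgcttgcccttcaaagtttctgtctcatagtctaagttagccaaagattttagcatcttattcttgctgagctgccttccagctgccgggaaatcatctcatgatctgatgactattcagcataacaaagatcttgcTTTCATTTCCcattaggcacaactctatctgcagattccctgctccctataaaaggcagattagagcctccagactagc

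The capitals in *Vsig4* mark GAGGAA, the core of sites of PU.1, an ETS factor of macrophages. In *Timd4* and *Ccl8* they mark GGAA and GAAA separated by 2 bases of any kind, a motif for an ETS factor paired with an interferon regulatory factor, in *Timd4* on the strand of the gene 72 bases before the start and in *Ccl8* on the opposite strand 79 bases before it. Searched on both strands over the whole window, GAGGAA occurred in 4 of the 9 promoters (*Marco*, *Cd5l*, *Ccl8* and *Vsig4*) and in 28.3% of 32851 promoters. The longer GAGGAAGT, which contains GAGGAA, occurred in 0 of 9 and in 3.20% of all promoters. The paired motif occurred in 2 of 9 and 2.72% of all, the MAF motif TGCTGAC in 1 of 9 (*Timd4*) and 4.67% of all, and the E-box CACGTG in 0 of 9 and 7.15% of all. A match describes the letters in this window and is not a binding site shown by these data.

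Levels were next compared between the female mice (replicate 2 of each genotype) and the male mice, a contrast that had not been used to choose the genes. Female mice had higher levels of 9 of the 10 genes: for every gene but *Ccl8*, both female mice were above all 4 male mice. On the log2 scale of TPM + 0.1 and with genotype as a covariate, 9 of the 10 genes rose in females at an unadjusted p under 0.05 in limma, compared with 28.7% of all genes in either direction, 25.6% upwards and 3.11% downwards. Female and male values did not overlap for 9 of the 10 genes and for 41.6% of all genes, so that the separation alone was common in these livers. In liver RNA, more cells of a type and more RNA per cell cannot be told apart. The fit took all mice as independent. If mice of the same replicate number are paired, both female mice belong to the same pair. The SEs and p-values between the sexes may then be too small.

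Of the 10 genes, *Ccl6* had the largest difference, with 52.3 and 53.4 TPM in the 2 female mice and 10.5 to 15.1 TPM in the 4 male mice. The log2 difference was 2.07 (SE 0.19, 4.20-fold, adjusted p = 0.00621 in limma). *Cd5l* was 1.75 higher (SE 0.21, adjusted p = 0.0126), *Timd4* 1.66 (SE 0.21, adjusted p = 0.0139) and *Vsig4* 1.59 (SE 0.16, adjusted p = 0.00791), so that these markers were at about 3.01 to 3.37 times the male level. *Marco* was 1.55 higher (SE 0.22, adjusted p = 0.0181) and *Cd163* 1.46 (SE 0.19, adjusted p = 0.0145). *Clec4f* had the smallest estimate of the 7 surface and secreted markers, 1.00 (SE 0.19, 2.00-fold, adjusted p = 0.0326).

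*Adgre1* and *Ccr2* had wider errors. *Adgre1* was 1.23 higher in females (SE 0.30, unadjusted p = 0.00522 and adjusted p = 0.0591 in limma) and *Ccr2* 1.50 higher (SE 0.35, unadjusted p = 0.00400, adjusted p = 0.0521). Without the Alb-Cre+ female mouse the difference in *Adgre1* was 0.82 with an unadjusted p of 0.106. For *Ccl8* the log2 difference was 0.19 with a 95% interval of -0.59 to 0.97 (adjusted p = 0.734 in limma), and the Alb-Cre+ female had the highest of the 3 values above 0.

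At an adjusted p under 0.01, *Vsig4* and *Ccl6* were called, 2 of the 10 genes and 73 of all genes (0.514%). The call of *Vsig4* was lost when any 1 of the 6 mice was left out, with an adjusted p of up to 0.171 without the Alb-Cre+ female, and that of *Ccl6* when any mouse but the males of replicate 1 was, with up to 0.146. With the Alb-Cre+ female left out 0 of the 9 genes then tested had an adjusted p under 0.01, and with the Alb-Cre- female left out 0 of 10. Both calls were also lost without a trend in the variance or without the filter on low values. The direction did not depend on a single mouse: the difference was above 0 within each genotype for the 9 genes, from 0.81 for *Clec4f* in Alb-Cre- mice to 2.11 for *Ccl6* in Alb-Cre- mice. An interaction of sex and genotype, added after the data were seen and estimated with 1 female per genotype, had unadjusted p of at least 0.225 in limma for these 9 genes, and 0 of all genes had an adjusted p under 0.05. The intervals of that interaction are wide, with SEs of 0.33 to 0.70.

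**Figure D2:**
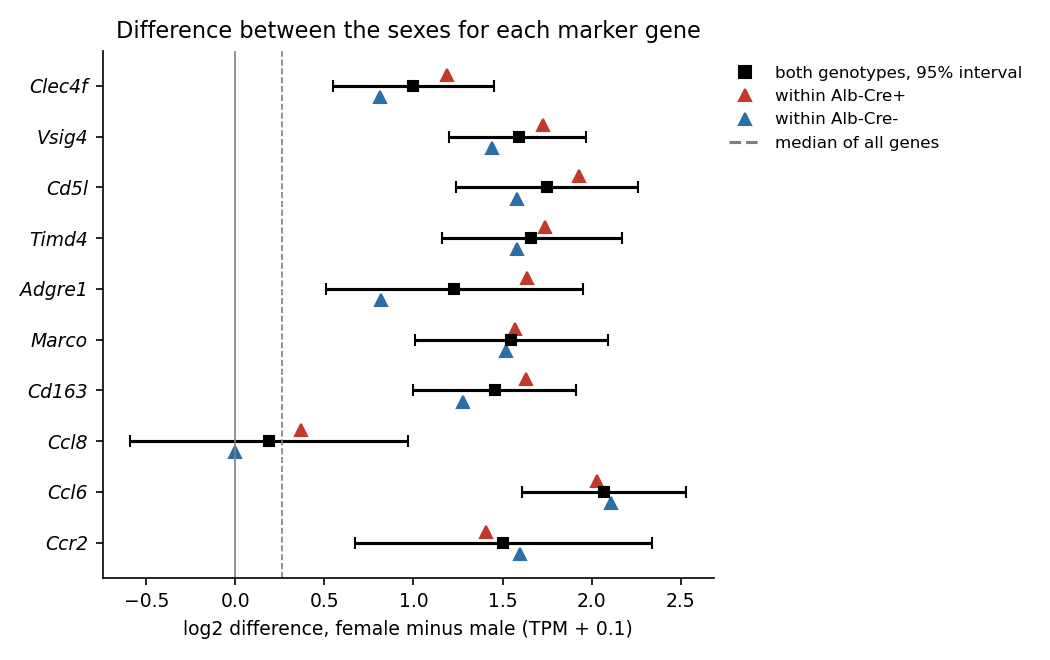
Log2 difference between female and male mice for each gene. Squares show the estimate over both genotypes with its 95% interval, triangles the difference within each genotype, and the dashed line the median of all genes at 0.26. The intervals of all genes but *Ccl8* lie above this median.

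Female values were higher across much of the table, not for macrophage genes alone. The median log2 difference of all 14189 genes was 0.26, and 76.7% of genes were higher in females. Of the genes with an unadjusted p under 0.05 in limma, 3631 were higher and 441 lower. After scaling by median of ratios, which centres each library on its typical gene, the median was -0.01 and the split 1861 higher and 2024 lower. On this scale *Ccl6* was still 1.78 higher in females, *Cd5l* 1.47, *Timd4* 1.38, *Vsig4* 1.30, *Ccr2* 1.27, *Marco* 1.26, *Cd163* 1.17, *Adgre1* 0.95 and *Clec4f* 0.71. After this scaling 9 of the 10 genes still had an unadjusted p under 0.05 in limma, against 27.4% of all genes.

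Genes of related lists, written with earlier results of these data known, place this difference beside other liver cells. All 21 pan-macrophage genes, among them the receptor *Csf1r* and the complement genes *C1qa*, *C1qb* and *C1qc*, rose in females at an unadjusted p under 0.05 in limma, with a median log2 difference of 1.43 (1.14 after median of ratios scaling). Of 14 other Kupffer cell genes 11 rose and 1 fell, with a median of 1.28. The gene that fell was *C6*, a complement component also made by hepatocytes, named here after its value was seen, at 14.3 and 11.2 TPM in the female mice and 34.1 to 119.9 TPM in the male mice. Of 11 monocyte genes tested 8 rose and 0 fell, with a median of 1.15. The 8 include *Hp*, haptoglobin, which hepatocytes also make in large amounts and which had 3790.2 to 19818 TPM.

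The summed level of the 7 surface and secreted markers was 438 to 478 TPM in female and 121 to 187 TPM in male mice, and that of the 21 pan-macrophage genes 954 to 1012 TPM and 296 to 418 TPM. The 5 neutrophil markers summed to 145 to 298 TPM in female and 23.6 to 53.7 TPM in male mice, and 3 of the 4 tested rose, with a list median of 2.49. Of 10 sinusoidal endothelial markers 4 rose (median 0.56), of 8 stellate cell markers 3 (median 0.77), of 8 lymphocyte markers 2 (median 0.68), and of 4 tested dendritic cell markers 2 (median 0.86), with 0 falling in each and 25.6% of all genes rising. The share of lymphocyte markers that rose was near that of all genes. Of 6 hepatocyte markers 0 rose and 1 fell, with a median of -0.05. After median of ratios scaling the medians were 2.20 for neutrophil, 0.28 for endothelial, 0.49 for stellate cell, 0.48 for lymphocyte, 0.66 for dendritic cell and -0.34 for hepatocyte markers. Lymphocyte markers summed to at most 6.13 TPM and dendritic cell markers to at most 1.90 TPM in any mouse, and *Mpo*, a neutrophil precursor marker, was at most 0.203 TPM. The part of other cell types in the difference between the sexes was not tested.

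**Figure D3:**
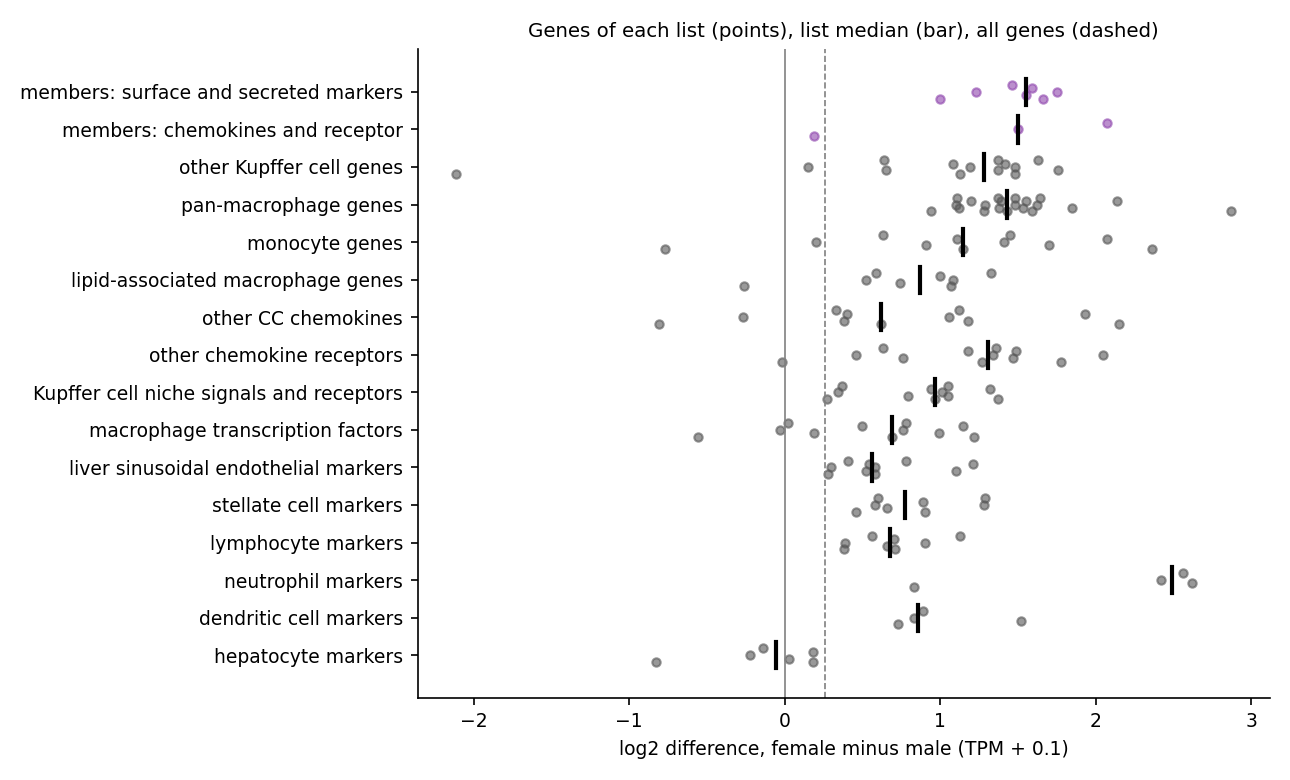
Log2 difference between female and male mice for the tested genes of each list, with 1 point per gene, the list median as a bar and the median of all genes (0.26) as a dashed line. Medians of macrophage lists lie between 0.69 and 1.55, neutrophil markers at 2.49 and hepatocyte markers at -0.05.

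Genes that support or guide Kupffer cells were counted in the same way, against 25.6% of all genes that rose. Of 11 niche signals and receptors, 7 rose in females and 0 fell (median 0.97, or 0.69 after median of ratios scaling). The growth factor *Csf1* was among those that rose. The growth factor *Il34* (0.79, unadjusted p = 0.0871 in limma) and the endothelial ligand *Dll4* (0.37, unadjusted p = 0.355) were not. Of 11 macrophage transcription factors 3 rose, a share near that of all genes (median 0.69), of 12 tested chemokine receptors 7 rose (median 1.31), of 8 lipid-associated macrophage genes 4 rose (median 0.87), and of 11 tested CC chemokines 4 rose and 1 fell (median 0.62). The list of transcription factors includes *Spi1*, which encodes PU.1, with a log2 difference of 1.22 (SE 0.17, adjusted p = 0.0171 in limma).

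To set the genes against macrophage RNA as a whole, each value was divided by the geometric mean of the 21 pan-macrophage genes in the same mouse, a ratio added after the data were seen and given without a test. The spread over the 6 mice then shrank for all 9 genes other than *Ccl8*. A smaller spread was largely set in advance, as these genes and the divisor were all high in both female mice. The share of all genes whose spread shrank was not computed. *Vsig4* ranged over 1.95 log2 units before and 0.21 after, *Timd4* over 2.02 and 0.28, and *Cd163* over 1.81 and 0.34. *Clec4f* changed sides: its ratio was 0.50 lower in female than in male mice on the log2 scale, without overlap. *Ccl6* stayed 0.58 higher and *Timd4* 0.17 higher in females, also without overlap. As the divisor was itself high in females, 84.1% of all genes were lower in both females than in every male on this ratio, and 0.832% were higher.

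*Marco* was the gene of the 9 whose ratio separated the genotypes. Its log2 ratio to the pan-macrophage mean was 1.73, 1.46 and 1.41 in the Alb-Cre+ mice and 0.53, 0.99 and 1.02 in the controls, a difference of 0.68 between means (SD 0.17 and 0.27, n = 3 each). The highest control was below the lowest Alb-Cre+ mouse. On the same ratio the genotypes did not overlap for 207 of all 14189 genes (1.46%), 125 of them higher in Alb-Cre+ mice (0.881%). The choice of *Marco* rests on this same contrast, so these values describe it. Neutrophil markers summed to 42.2 to 298 TPM in Alb-Cre+ and 23.6 to 145 TPM in control mice, and their part in the ratio was not tested.

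**Figure D4:**
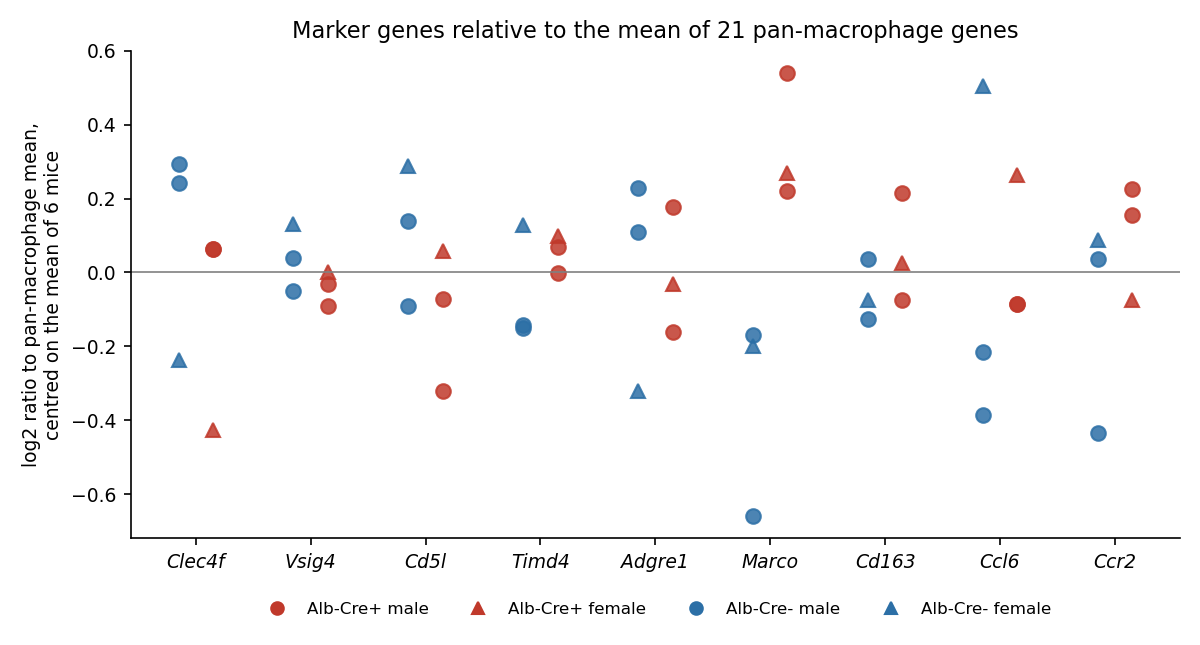
Log2 ratio of each gene other than *Ccl8* to the mean of 21 pan-macrophage genes, centred on the mean of the 6 mice, with 1 point per mouse. Alb-Cre+ mice (red) lie above Alb-Cre- mice (blue) for *Marco*, female mice (triangles) below male mice for *Clec4f* and above them for *Ccl6*.

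The other macrophage lists were compared between the genotypes in the same fit. With limma, 0 of 14 other Kupffer cell genes, 0 of 21 pan-macrophage genes, 0 of 11 monocyte genes and 0 of 8 lipid-associated macrophage genes had an unadjusted p under 0.05, against 1.76% of all genes, and 0 an adjusted p under 0.01. Their median log2 differences were -0.05, -0.08, -0.04 and -0.36, and that of all genes was 0.00. Among the genes of smallest p in these lists were *Cxcl13*, a B cell chemokine of Kupffer cells, at 1.03 (SE 0.70), *Spic*, a transcription factor of iron-recycling macrophages, at 0.47 (SE 0.54), *Axl* at -0.29 (SE 0.50), *Msr1* at -0.31 (SE 0.61) and *Itgax* at -0.74 (SE 0.48). Without the block none of these values exceeded 2 SE. With the replicate number as a block, 1 of the 14 other Kupffer cell genes had an unadjusted p under 0.05, against 4.69% of all genes. It was *Cxcl13*, higher in each of the 3 pairs by 0.68, 0.72 and 1.69 (SE 0.22, unadjusted p = 0.00486, adjusted p = 0.609 in limma with the block).

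All 8 lipid-associated macrophage genes had a lower mean in Alb-Cre+ mice, from -0.12 to -0.88 on the log2 scale. *Trem2*, a lipid receptor, had 0.259, 0.669 and 0.505 TPM in the Alb-Cre+ mice and 0.637, 1.05 and 0.847 TPM in the controls, a log2 difference of -0.76 (SE 0.39, unadjusted p = 0.0899, adjusted p = 1.0 in limma). *Mmp12*, a macrophage elastase, differed by -0.88 (SE 0.43, unadjusted p = 0.0810). With the replicate number as a block both had an unadjusted p under 0.05, 0.0225 and 0.0429, with adjusted p of 0.925 and 0.999. *Il34* and *Bmp10* of the niche differed by 0.49 (SE 0.47) and 0.23 (SE 0.48), and *Zeb2* of the transcription factors by 0.41 (SE 0.49).

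The chemokine genes other than *Ccl8* and *Ccl6* had differences of both signs. Of 11 CC chemokines tested of 15, 7 had a higher and 4 a lower mean in Alb-Cre+ mice (median 0.37), and 0 had an unadjusted p under 0.05. *Ccl25* and *Ccl9* had the smallest p, with log2 differences of -0.36 (SE 0.23) and 0.37 (SE 0.26). With the replicate number as a block, 5 of the 11 had an unadjusted p under 0.05 in limma, against 4.69% of all genes, and 0 an adjusted p under 0.01. *Ccl3*, *Ccl4* and *Ccl5* were higher in each of the 3 pairs, by 0.34 to 1.29 on the log2 scale, and *Ccl17* and *Ccl24* lower in each, by -0.35 to -1.32. In replicate 3, *Ccl3* and *Ccl4* were listed at 0 in the control and had 0.141 and 0.112 TPM in the Alb-Cre+ mouse. Their differences in that pair therefore depend on the added 0.1 TPM. These 5 genes are named after their values were seen. *Ccl5*, a lymphocyte chemokine, had 6.70, 9.30 and 3.62 TPM in the Alb-Cre+ mice and 3.89, 6.99 and 1.59 TPM in the controls (adjusted p = 0.738 in limma with the block).

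*Ccl2*, the main ligand of the *Ccr2* receptor, showed 1 high library: 0.882, 11.2 and 0.300 TPM in the Alb-Cre+ mice and 0.832, 1.10 and 1.19 TPM in the controls. The Alb-Cre+ female alone was above the others. *Ccl12*, another *Ccr2* ligand, was listed at 0 in 5 of 6 mice and did not pass the filter. Of 12 chemokine receptors tested, *Cxcr2* and *Ackr4* had the smallest p, with log2 differences of 1.09 (SE 0.80) and -0.50 (SE 0.37), and 0 had an unadjusted p under 0.05. *Cxcr2*, the neutrophil receptor, was higher in the Alb-Cre+ mouse of each pair, by 0.33, 1.48 and 1.44 (adjusted p = 0.890 in limma with the block).

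**Figure D5:**
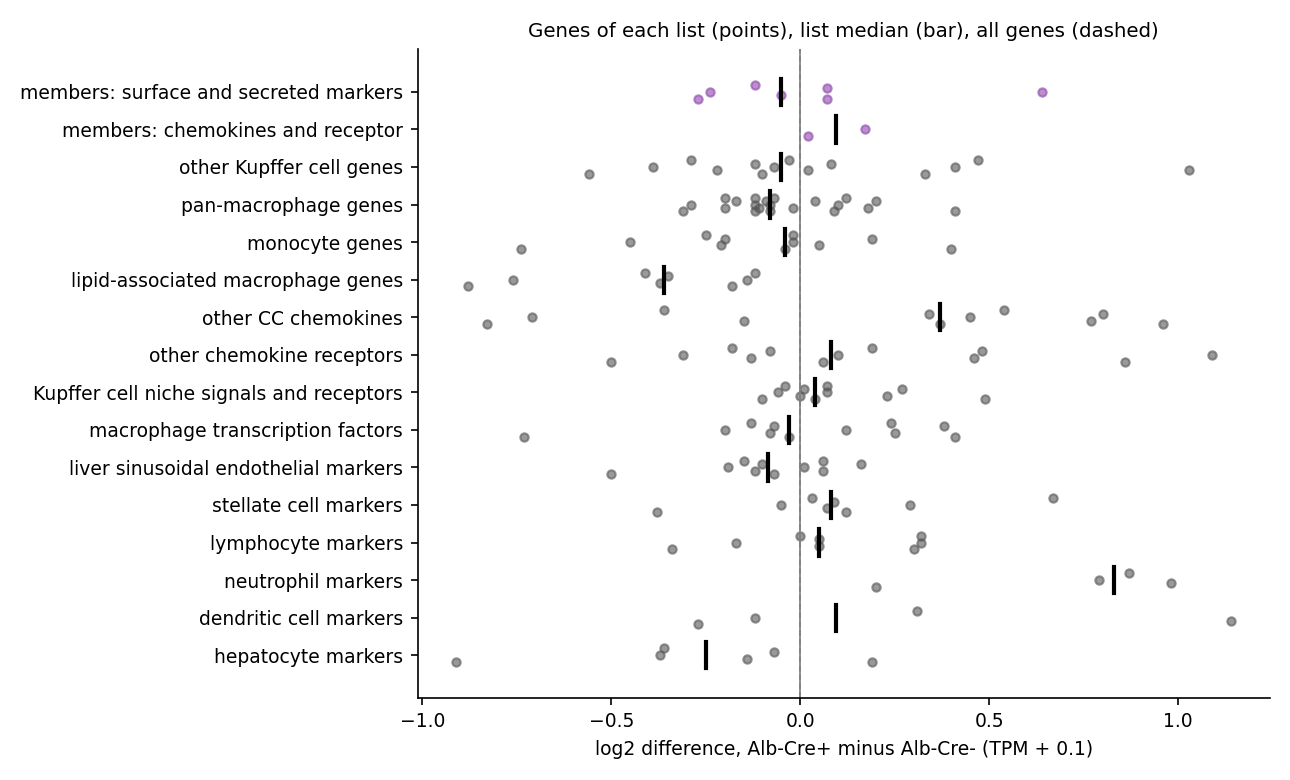
Log2 difference between Alb-Cre+ and Alb-Cre- mice for the tested genes of each list, with 1 point per gene, the list median as a bar and the median of all genes as a dashed line at 0. *Ccl8*, listed at 0 in the controls, is left out. All 8 lipid-associated macrophage genes and 5 of 6 hepatocyte markers lie below 0, and the 4 neutrophil markers above it.

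Of the 14 lists, that of hepatocyte markers held the only gene with an unadjusted p under 0.05 between the genotypes: *Apoa1*, an apolipoprotein, was lower in Alb-Cre+ mice by -0.91 (SE 0.24, unadjusted p = 0.00651, adjusted p = 1.0 in limma), without overlap. The genes of smallest p in the rest were *Lyve1* and *Oit3* of endothelium at -0.50 (SE 0.53) and -0.19 (SE 0.30), *Rgs5* and *Reln* of stellate cells at -0.38 (SE 0.27) and 0.67 (SE 0.70), *Cd79a* and *Cd3d* of lymphocytes at -0.34 (SE 0.41) and 0.30 (SE 0.46), *Clec9a* and *Siglech* of dendritic cells at 1.14 (SE 0.52) and 0.31 (SE 0.42), and *Retnlg* and *S100a8* of neutrophils at 0.98 (SE 0.95) and 0.87 (SE 0.93). The genotypes overlapped for all of these genes except *Apoa1*. With the replicate number as a block, 3 of the 4 neutrophil markers tested had an unadjusted p under 0.05 in limma and were higher in Alb-Cre+ mice, against 4.69% of all genes in either direction, and *Retnlg* was higher by 1.05, 0.90 and 1.00 in the 3 pairs (adjusted p = 0.281). *Clec9a* was higher by 1.76, 0.91 and 0.75 in the pairs (unadjusted p = 0.0136, adjusted p = 0.817 in limma with the block).

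At the level of transcripts, the 10 genes had 24 entries in the table. *Clec4f-201*, the coding transcript of 2471 bases, had 73.1 and 66.6 TPM in the female mice and 20.5 to 42.9 TPM in the male mice. *Clec4f-202*, a processed transcript of 608 bases, had 4.45 and 10.1 TPM in females and 5.24 to 8.23 TPM in males. The higher *Clec4f* level in female mice was thus carried by the coding transcript, and *Clec4f-202* made up 5.73 to 13.2% of the gene in females and 13 to 28.6% in males. *Ccr2-201* had 0.451 and 0.590 TPM in the female mice and 0 to 0.0448 TPM in the male mice, whereas *Ccr2-202*, with a single exon, had 0.335 and 0.196 TPM in females and 0.0891 to 0.241 TPM in males.

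Some entries were not coding transcripts. *Ccl6-202*, with a retained intron, held 29.3% of the *Ccl6* level over all mice, and *Cd163-203*, also with a retained intron, 18.4% of that of *Cd163*. Sequence shared with other genes was rare: 7 of the 10 genes shared none of their stretches of 31 bases, *Cd163* shared 0.583%, *Ccl6* 1.02% and *Ccr2* 3.48%. The *Ccr2* values are uncertain through this sharing and through their low level.

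The genes whose pattern over the 6 mice was nearest to the mean profile of the 7 surface and secreted markers were *Rcsd1*, *Cybb*, *Epsti1*, *Lrmp* and *Cd300e*, out of 2781 candidate genes. Their root mean square distance from the profile was 0.0448, 0.0493, 0.0518, 0.0690 and 0.0707 log2 units, where the profile itself had an SD of 0.78. *Cybb*, a subunit of the phagocyte NADPH oxidase, had 5.06, 13.2 and 3.68 TPM in the Alb-Cre+ mice and 5.03, 12.0 and 4.35 TPM in the controls. The pan-macrophage genes *C1qc*, *C1qa*, *Csf1r* and *C1qb* ranked 6, 7, 14 and 17. Of the 7 markers themselves, *Vsig4* was nearest to their mean at 0.10 and *Marco* farthest at 0.351. *Ccl6* ranked 525 with a distance of 0.312.

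For *Ccl8* no genes of like pattern are given, because its log2 profile is set by the 0.1 TPM added to the controls listed at 0.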

How the data were processed

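Liver RNA from 6 mice was analysed, 3 per genotype, with groups and sex taken from the sample labels. The authors deposited TPM per transcript and mouse, which add up to 1000000 in each. The processing notes name STAR, RSEM, Salmon, DESeq and DESeq2 with GRCm38, and the methods describe STAR and RSEM, so which tool made the TPM is not settled here. A table of the authors' own comparison (mean normalized counts, log2 fold changes, standard errors, statistics, p-values and adjusted p-values) was not used.

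TPM were summed per gene symbol (35540 symbols). The 163 transcripts without a symbol held 0.0515 to 0.0887% of TPM per mouse and were left out. The 14189 genes whose mean reached 0.1 TPM entered limma 3.58.1 (R 4.3.3) as log2(TPM + 0.1) (empirical Bayes with a trend, two-sided, Benjamini-Hochberg over all genes). The genotype fit had no covariate and the sex fit had genotype. Because p-values rest on 6 mice, taken as independent except in fits with the replicate block, they measure the spread between these mice. TPM hold no read counts, so no count test was run and depth is unknown.

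The 10 genes and the gene lists were chosen with earlier results of these data known. All 10 genes were to be named, and of each list those with an unadjusted p under 0.05 between genotypes or, with none, the 2 with the smallest p, some of which are not reported here. Genes of like pattern were sought among those with a mean of at least 1 TPM and an SD within a factor of 2.0 of the profile's. Deviations from the genotype means correlated at 0.367, 0.588 and 0.370 between mice of the same replicate number, and at -0.444 to 0.171 between mice of unlike number. The numbers were therefore taken to pair the mice, on the data alone, since no source used here states it and number 2 also marks the female mice. Results given by pair or with the block rest on this assumed pairing, which was judged from the same values. Sex differs only between such pairs, and the sex fit took the mice as independent, so its SEs and p-values may be too small. Alternatives were sex as a covariate, the replicate block, a pseudocount and a minimum of 1 TPM, no filter, median of ratios, no variance trend, no genotype covariate and each mouse left out. The male mice alone, the block with median of ratios, and the interaction of genotype and sex were added after the data were seen. On simulated data of 14189 genes, 85 of 100 genes changed by 1 log2 unit had an unadjusted p under 0.05 in the genotype fit. In the sex fit 84 of 100 had one, but only 17 and 4 had an adjusted p under 0.01 in the genotype and sex fits. The simulated genotype data held no difference between the sexes, which in the real genotype fit adds to the residual spread. The genotype shares are thus too high for genes that differ between the sexes. Among the genes described here, SEs in that fit ran from 0.40 for *Clec4f* to 0.76 for *Ccl6*.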

Additional observations from a re-analysis of the deposited data

How the results depend on the processing

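Groups of 3 and 2 mice limit every comparison, and *Ccl8* and *Ccr2* lie under 1 TPM in every mouse. The difference in sex kept its direction under all alternatives run for the 10 genes, lowest for *Ccl8* at 0.04 (median of ratios), with *Ccr2* next at 0.57 (pseudocount of 1 TPM), and its side of an unadjusted p of 0.05 except for *Adgre1* without the Alb-Cre+ female (0.82). Between genotypes, leaving out 1 mouse changed the sign of each gene with a computed difference but *Marco*. Genes with an unadjusted p under 0.05 between genotypes numbered 250, and 442 with no filter, 531 with sex as a covariate, 522 in male mice alone, and 183 to 506 with each mouse left out. Pairing the mice by the replicate block gave 666, and 776 together with median of ratios, while the count at an adjusted p under 0.01 stayed at 0 in all of these settings except 1 gene without Alb-Cre+ replicate 1 (0 to 1 with each mouse left out). For the sexes, 73 genes had an adjusted p under 0.01, and 31 without the trend, 28 with no filter, 286 without genotype as a covariate and 3 to 51 with each mouse left out, with 2053 to 3732 at an unadjusted p under 0.05. Of the 10 genes, 0 to 5 were then called at the adjusted threshold. The cause of these differences was not tested.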
